A study of Homo sapiens with 4 samples.

Results

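The genes described here encode 51 factors of RNA polymerase II elongation, termination and 3′ end processing, taken from a written list of complexes: DSIF, SPT6, FACT, NELF, the PAF1 complex, the super elongation complex, TFIIS, CDK12 and CDK13 with cyclin K, Integrator, CPSF, CFIm, CSTF, CFIIm and XRN2. The 51 genes were chosen by name, not by a threshold on a measured value, and were found by gene identifier among the 57820 gene rows of the count tables. RNA was sequenced from SY5Y, a neuroblastoma cell line labelled as MYCN wild type. There were 2 libraries from cells given DMSO and 2 libraries from cells given SGSS05-NS, all collected after 12 h. The study names its compound SGSS05-NS3, a covalent inhibitor of the histone H4 lysine 20 methyltransferase SETD8 (KMT5A). The label's SGSS05-NS was taken here as the same compound. The study also names SGSS05-NS itself among the more active compounds of a series, which inhibited other methyltransferases as well. For SGSS05-NS3 its supplement lists the strongest inhibition for SETD8, with some other methyltransferases also inhibited below 3 µM. Effects through SETD8 and through other enzymes were not separated here. The labels and the study's legends give the dose as 3 µM, and its methods give a lower one for this line. A single line was used, so the values describe SY5Y cells and no other neuroblastoma, and the replicate libraries were separate biological samples per the study's methods.

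RNA polymerase II often stops shortly after it starts, held there by NELF and by DSIF, the heterodimer of SPT4 and SPT5. The kinase P-TEFb, which the super elongation complex carries to genes, phosphorylates these factors and the polymerase, after which NELF leaves and SPT5, SPT6, FACT and the PAF1 complex travel with the polymerase through chromatin. Integrator can instead cut the short transcript and end transcription early, and at the end of a gene CPSF, CSTF, CFIm and CFIIm cut and polyadenylate the transcript while the exonuclease XRN2 degrades the downstream RNA.

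Fragments assigned to genes numbered from 21463105 to 25350204 per library, and the members took 0.516% and 0.522% of them with DMSO and 0.499% and 0.486% with SGSS05-NS. The share of fragments with no annotated exon on the strand that was counted was 12.4% and 12.3% with DMSO, against 16.1% and 15.3% with SGSS05-NS. Of 9 sympathetic neuroblastoma markers, TH, the first enzyme of catecholamine synthesis, was nearly undetected at 2, 2, 1 and 0 fragments, and the other genes had from 2262 to 33439 fragments in a library. The summed marker level was 3825 and 4104 CPM (fragments scaled to a common library total) with DMSO and 2447 and 2436 CPM with SGSS05-NS. PHOX2A, HAND2, GATA3, CHGA and STMN2 fell at an adjusted p under 0.001 in edgeR's quasi-likelihood test. ISL1 and DBH had lower means but missed that threshold (adjusted p = 0.00251 and 0.0441). CHGB went the other way, from a mean of 109.5 CPM to 118.1 CPM (adjusted p = 0.36). Summed CPM of 6 fibroblast markers went from 77.8 and 82.3 to 58.0 and 49.2, most of it PDGFRB, which fell, while COL1A1 had 21 and 22 fragments with DMSO and 26 and 28 with SGSS05-NS. Summed CPM of 5 epithelial markers went from 2.39 and 2.87 to 3.38 and 4.38, most of it EPCAM, while CDH1 went from 11 and 11 fragments to 1 and 1. The sum of 5 immune markers was at most 0.180 CPM, with DCN, KRT5, KRT14 and CD3E at 0 in all libraries. The part of these shifts in the results was not tested. In bulk RNA a change in the mix of cells and a change in RNA per cell cannot be told apart.

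A gene was called when its adjusted p-value in edgeR's quasi-likelihood test, corrected over all 16468 genes tested, was under 0.001. By this rule 2 members rose with SGSS05-NS (ELL2 and EAF1, both of the super elongation complex) and 5 fell (MLLT3, also of the super elongation complex, the Integrator subunits INTS2, INTS3 and INTS9, and CPSF2). These are 4% and 10% of the 50 members tested, beside 6.37% of all genes tested that rose and 8.14% that fell. ELL3, an ELL paralog, had 1, 0, 2 and 2 fragments and was not tested. At the looser threshold of 0.05, 9 members were higher and 11 lower, beside 22.6% and 23.7% of all genes, and 30 passed in neither direction. Both SGSS05-NS libraries lay above both DMSO libraries for 15 members and below them for 21, beside 37.8% and 36.9% of all genes, while 14 members overlapped. None of these shares lay far from that of all genes. The median log2 fold change, SGSS05-NS over DMSO, was −0.06 over the members and 0.01 over all genes.

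**Figure D1:**
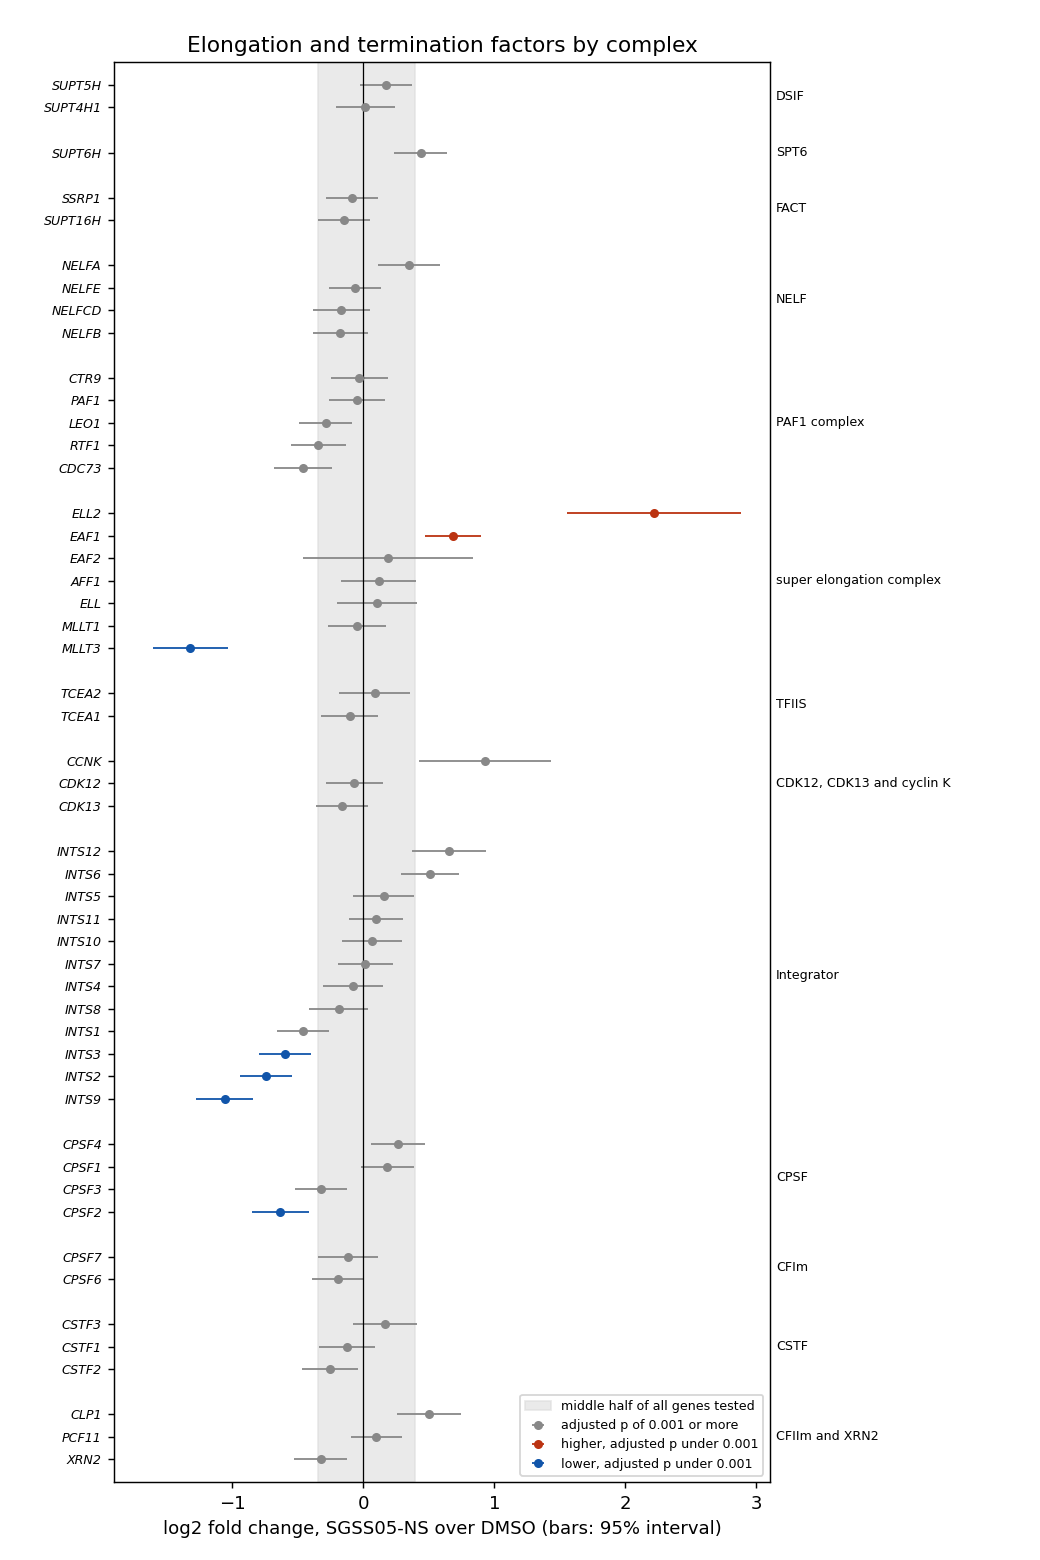
Log2 fold change of each member tested (horizontal axis, SGSS05-NS over DMSO), with its 95% interval as a bar, grouped by complex on the vertical axis; colours mark members past the threshold of 0.001 and the grey band holds the central quartiles of all genes, from −0.34 to 0.39. The super elongation complex spreads from −1.32 to 2.22 and Integrator from −1.06 to 0.66, while DSIF, FACT, NELF, TFIIS, CFIm and CSTF lie inside the band.

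The super elongation complex had members called in both directions. ELL2, an elongation factor that stimulates the polymerase, had 29 and 20 fragments (1.16 and 0.856 CPM) with DMSO and 79 and 138 fragments (3.56 and 5.87 CPM) with SGSS05-NS. Every SGSS05-NS library was above both DMSO libraries, although the levels were low throughout and the 2 treated libraries differed from each other. The log2 fold change was 2.22 (SE 0.30, 95% interval 1.56 to 2.88), or 4.66-fold, with an adjusted p of 0.000127. EAF1, which binds ELL proteins and increases their activity, had 106.5 and 108.5 CPM with DMSO and 162.1 and 183.5 CPM with SGSS05-NS, which is 107.5 ± 1.45 against 172.8 ± 15.1 (mean ± SD, n = 2). The groups did not overlap, and EAF1 rose 1.61-fold (log2 fold change 0.68, SE 0.10, adjusted p = 0.000163). MLLT3 (AF9), a YEATS domain protein that reads acetylated histones and tethers the complex to chromatin, went the other way, with 29.4 and 25.9 CPM with DMSO and 10.3 and 11.8 CPM with SGSS05-NS. Here too the groups were apart: the level was 2.50-fold lower (log2 fold change −1.32, SE 0.13, adjusted p = 1.17e-05). The remaining members tested were AFF1, a scaffold of the complex, ELL, EAF2 and MLLT1 (ENL), with log2 fold changes from −0.05 to 0.19 and adjusted p-values from 0.494 to 0.724. EAF2, at 1.24 and 0.984 CPM with DMSO, was measured with a wide interval for its log2 fold change, −0.46 to 0.84.

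**Figure D2:**
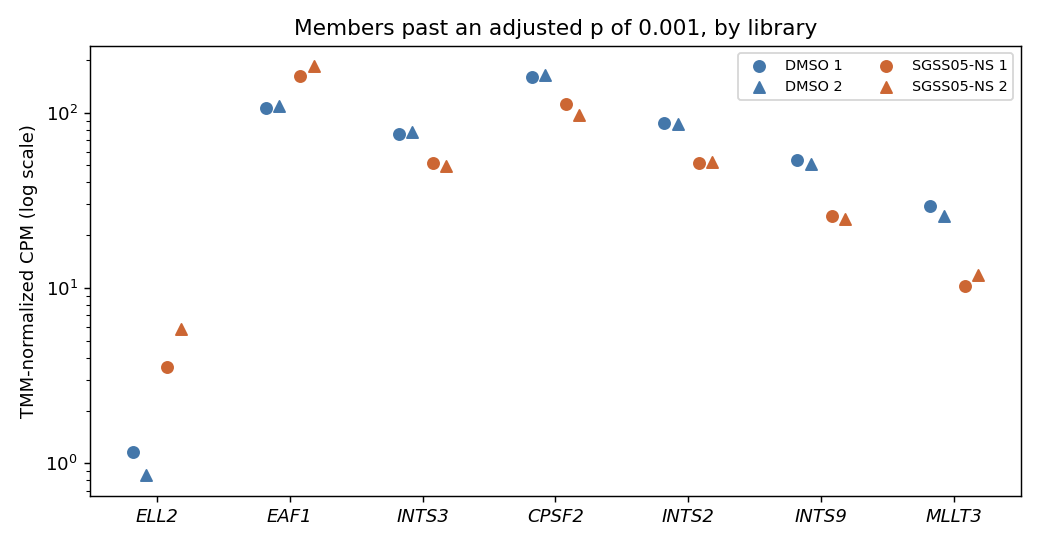
Level of the 7 called members in each library (TMM-normalized CPM on a log axis, genes side by side); each point is 1 library, blue for DMSO and orange for SGSS05-NS. The 2 SGSS05-NS libraries of ELL2 (3.56 and 5.87 CPM) lie above its DMSO libraries, and those of MLLT3 (10.3 and 11.8 CPM) lie below theirs.

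Integrator, which cuts nascent transcripts near promoters and at small nuclear RNA genes, had 12 members tested, of which 3 fell at 0.001, where 8.14% of all genes fell. In the same quasi-likelihood fit by edgeR, 2 further subunits, INTS6 and INTS12, were higher at an adjusted p under 0.05 but missed 0.001. Both passed 0.001 with edgeR's likelihood ratio test and with DESeq2, so that Integrator then had calls in both directions. Of all 16468 genes, the likelihood ratio test called 2022 higher and DESeq2 1126, where the quasi-likelihood fit called 1049. INTS9 (ENSG00000104299.10, chr8:28625178-28747759 of GRCh37, minus strand), the catalytically inactive partner of the endonuclease INTS11, had 53.3 and 51.2 CPM with DMSO and 25.6 and 24.7 CPM with SGSS05-NS. The libraries of each group lay close together, and the level was 2.08-fold lower (log2 fold change −1.06, SE 0.10, 95% interval −1.28 to −0.84, adjusted p = 8.62e-06), the smallest adjusted p among the members. INTS2, a large scaffold subunit, had 87.5 and 86.2 CPM with DMSO and 51.7 and 52.0 CPM with SGSS05-NS, 1.67-fold lower (log2 fold change −0.74, SE 0.09, adjusted p = 5.45e-05). INTS3, which is also part of the SOSS complex of DNA repair, had 75.2 and 77.9 CPM against 51.3 and 49.7 CPM, 1.52-fold lower (log2 fold change −0.60, SE 0.09, adjusted p = 0.000284). The groups of INTS2 and INTS3 did not overlap either, and the SD within a group was at most 1.96 CPM.

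The other Integrator subunits lay on both sides of 0. INTS1, the largest subunit, was at 402.3 and 408.5 CPM with DMSO and 300.0 and 288.6 CPM with SGSS05-NS, a log2 fold change of −0.46 (SE 0.09) that missed the threshold (adjusted p = 0.00157). INTS6, which helps recruit protein phosphatase PP2A, had 55.9 and 48.9 CPM against 70.7 and 78.4 CPM (log2 fold change 0.51, SE 0.10, adjusted p = 0.00187). INTS12, a PHD finger subunit, had 20.2 and 22.4 CPM against 29.7 and 37.2 CPM (log2 fold change 0.66, SE 0.13, adjusted p = 0.00156). These 3 genes were separated between groups, and INTS1 also passed 0.001 by the likelihood ratio test, DESeq2 and limma voom (adjusted p from 5.2e-05 to 0.00098). The endonuclease INTS11 had 46.2 and 47.9 CPM with DMSO and 49.6 and 51.0 CPM with SGSS05-NS, with an interval of −0.11 to 0.30 for its log2 fold change. INTS4, INTS5, INTS7, INTS8 and INTS10 had log2 fold changes from −0.19 to 0.16 and adjusted p-values from 0.156 to 0.91. The median over the 12 subunits was −0.03, and between −0.12 and 0.05 with a library left out, being above 0 without SGSS05-NS replicate 1.

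Among the 12 cleavage and polyadenylation factors, counted with the exonuclease XRN2, 1 gene fell at 0.001 (8.33%) and none rose. Of all genes tested 8.14% fell and 6.37% rose. CPSF2 (CPSF100), the inactive partner of the endonuclease CPSF3 and so the counterpart of INTS9, had 159.5 and 163.9 CPM with DMSO and 111.8 and 96.7 CPM with SGSS05-NS. The level was 1.55-fold lower with no overlap (log2 fold change −0.63, SE 0.10, adjusted p = 0.000346), and the call was lost, at an adjusted p of 0.0015, when libraries were scaled by their totals alone. CPSF3 (CPSF73), the nuclease that cuts at the poly(A) site, had 243.0 and 246.4 CPM against 191.6 and 199.6 CPM, a log2 fold change of −0.32 (SE 0.09, adjusted p = 0.0122). CPSF1 and CPSF4, which belong to the part that reads the polyadenylation signal, were at 0.18 and 0.26 (adjusted p = 0.125 and 0.0348).

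The other factors of the poly(A) site and XRN2 had log2 fold changes between −0.33 and 0.50. CPSF6, a CFIm subunit that steers poly(A) site choice, had 243.2 and 250.4 CPM with DMSO and 210.6 and 220.4 CPM with SGSS05-NS (log2 fold change −0.20, adjusted p = 0.098), and CPSF7 was at −0.12. CSTF2, which binds the GU-rich element downstream of the site, had 52.9 and 50.1 CPM against 45.3 and 41.1 CPM (log2 fold change −0.25, adjusted p = 0.0528), and CSTF1 and CSTF3 were at −0.12 and 0.16. CLP1, an RNA kinase in CFIIm, had 22.1 and 21.7 CPM against 29.1 and 33.0 CPM, a log2 fold change of 0.50 (SE 0.11, adjusted p = 0.00366), whereas its partner PCF11, which links the polymerase to cleavage, was at 0.10. The exonuclease XRN2 had 294.5 and 300.3 CPM against 229.9 and 244.3 CPM, a log2 fold change of −0.33 (SE 0.09, adjusted p = 0.0123). CLP1 and XRN2 were both separated between groups, in opposite directions. Neither passed 0.001 in the quasi-likelihood fit, and CLP1 did with the likelihood ratio test (adjusted p = 4e-04).

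Outside the super elongation complex, none of the 19 elongation factors tested passed 0.001 in the quasi-likelihood fit by edgeR, where 6.37% of all genes rose and 8.14% fell. Both at an adjusted and at an unadjusted p under 0.05, 3 were higher and 3 lower. At the adjusted p under 0.05, 22.6% of all genes were higher and 23.7% lower. The likelihood ratio test called SUPT6H, CCNK and CDC73, and DESeq2 called SUPT6H. Of all 16468 genes, the likelihood ratio test called 2022 higher and 2267 lower, and DESeq2 1126 and 1576. The quasi-likelihood fit called 1049 and 1341. SUPT6H (SPT6), a histone chaperone, came nearest, with 171.8 and 171.6 CPM with DMSO and 241.5 and 223.0 CPM with SGSS05-NS (log2 fold change 0.44, SE 0.09, adjusted p = 0.00251). The DSIF subunit SUPT5H had 147.0 and 142.7 CPM against 159.8 and 167.4 CPM (log2 fold change 0.18, adjusted p = 0.133), and SUPT4H1 was at 0.01. In FACT, the histone chaperone of SUPT16H and SSRP1, SUPT16H had 573.6 and 592.1 CPM against 520.7 and 530.7 CPM (log2 fold change −0.15, adjusted p = 0.203) and SSRP1 was at −0.09 (adjusted p = 0.458). In NELF, NELFA had 40.4 and 36.7 CPM against 45.4 and 52.7 CPM (log2 fold change 0.35, SE 0.11, adjusted p = 0.0202), while both SGSS05-NS libraries of NELFB, NELFCD and NELFE were below the DMSO libraries, with log2 fold changes from −0.18 to −0.06 and adjusted p-values from 0.153 to 0.595.

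The PAF1 complex, which couples elongation to histone modification, had a median log2 fold change of −0.29, and 3 of its 5 members were lower at the looser threshold of 0.05, where 23.7% of all genes were. CDC73 (parafibromin) had 69.5 and 79.8 CPM with DMSO and 53.0 and 55.5 CPM with SGSS05-NS (log2 fold change −0.46, SE 0.10, adjusted p = 0.00294). RTF1 had 91.8 and 101.7 CPM against 79.1 and 73.3 CPM (log2 fold change −0.34, adjusted p = 0.0126), and LEO1 had 57.2 and 58.0 CPM against 48.4 and 45.9 CPM (log2 fold change −0.29, adjusted p = 0.0246). These 3 were separated between groups, and PAF1 and CTR9, at −0.05 and −0.03, overlapped. TCEA1, the main TFIIS gene, whose product restarts backtracked polymerase, had 129.0 and 140.1 CPM against 117.7 and 132.3 CPM (log2 fold change −0.11, adjusted p = 0.405), and TCEA2 was at 0.09.

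CDK12 and CDK13, kinases of the polymerase tail, were at log2 fold changes of −0.07 and −0.16 (adjusted p = 0.597 and 0.164). Their cyclin, CCNK, had 250 and 476 fragments (9.96 and 20.4 CPM) with DMSO and 673 and 641 fragments (30.3 and 27.3 CPM) with SGSS05-NS. The 2 DMSO libraries differed more from each other than the treated ones did, so the log2 fold change of 0.93 (SE 0.23, 95% interval 0.42 to 1.43, adjusted p = 0.00651) rested on which of them was used. It was 0.49 without DMSO replicate 1 and 1.51 without DMSO replicate 2, where it passed the threshold (adjusted p = 2.8e-15). CCDC85C lies on the other strand at CCNK, where 180, 183, 109 and 106 fragments were counted. Another gene, ENSG00000258749, overlaps CCNK on the same strand. The part of either gene in the CCNK values was not tested.

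Per kilobase of exon, the levels in DMSO covered a wide range. XRN2 stood highest at 87.3 ± 1.19 CPM per kilobase (RPKM, mean ± SD, n = 2), followed by the FACT genes SUPT16H at 84.5 ± 1.89 and SSRP1 at 80.3 ± 1.30. The gaps between neighbours in this order were of about the size of their summed SDs. The order also rests on exon length, which these SDs do not cover. Before division, XRN2 had a mean of 297.4 CPM with DMSO, below SUPT16H at 582.9 and SSRP1 at 508.8. The summed exon lengths were 3408 bases for XRN2, 6900 for SUPT16H and 6337 for SSRP1. These lengths came from a later GENCODE release than the study's methods name for counting. EAF2 at 0.627 RPKM, ELL2 at 0.142 RPKM and ELL3 at 0.00797 RPKM were the lowest, so the member with the largest fold change was also one of the least expressed before treatment.

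The called genes lie on 7 different chromosomes of GRCh37 (GENCODE 44 models). ELL2 (ENSG00000118985.10) covers chr5:95220802-95297555 on the minus strand, EAF1 (ENSG00000144597.9) covers chr3:15469105-15492142 on the plus strand and MLLT3 (ENSG00000171843.11) covers chr9:20341667-20622498 on the minus strand. INTS2 (ENSG00000108506.7) covers chr17:59942728-60005377 on the minus strand, INTS3 (ENSG00000143624.9) covers chr1:153700526-153747284 on the plus strand and CPSF2 (ENSG00000165934.8) covers chr14:92588313-92638489 on the plus strand.

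Promoter sequence was read from RefSeq (GRCh38.p14), which held 43 of the 51 members, as windows from 250 bases before to 50 after the start. The 120 bases before the start are shown for 5 called members: EAF1, which rose, and MLLT3, INTS2, INTS3 and CPSF2, which fell. ELL2, which also rose, had no window. INTS9, which fell with the smallest adjusted p among the members in the quasi-likelihood test, was left out, so the stretches do not cover all called members. Each stretch was found once on its chromosome in GRCh37: EAF1 at chr3:15468985-15469104 (plus strand), MLLT3 at chr9:20622499-20622618 (minus), INTS2 at chr17:60005344-60005463 (minus), INTS3 at chr1:153700406-153700525 (plus) and CPSF2 at chr14:92588193-92588312 (plus). The starts are those of RefSeq, and the stretch of INTS2 runs 34 bases into the GENCODE gene model given above. The sequences are written 5′ to 3′ along the gene's strand, and capitals mark matches on either strand to the SP1 box (GGGCGG), the ETS core (CCGGAAG), the CCAAT box and the NRF1 site (GCATGCGC).
EAF1: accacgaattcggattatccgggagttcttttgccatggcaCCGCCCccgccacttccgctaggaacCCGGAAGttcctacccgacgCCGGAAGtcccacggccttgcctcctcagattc
MLLT3: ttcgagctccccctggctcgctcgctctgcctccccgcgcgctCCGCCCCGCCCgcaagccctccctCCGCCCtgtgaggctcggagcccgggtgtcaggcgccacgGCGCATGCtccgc
INTS2: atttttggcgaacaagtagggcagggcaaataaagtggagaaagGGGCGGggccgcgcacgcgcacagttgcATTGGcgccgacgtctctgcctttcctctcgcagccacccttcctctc
INTS3: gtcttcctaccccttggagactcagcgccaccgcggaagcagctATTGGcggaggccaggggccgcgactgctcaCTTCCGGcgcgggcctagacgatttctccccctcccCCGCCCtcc
CPSF2: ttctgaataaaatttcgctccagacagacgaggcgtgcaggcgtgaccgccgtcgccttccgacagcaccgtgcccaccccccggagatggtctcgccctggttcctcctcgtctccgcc

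All of these but CPSF2 held an SP1 box in the stretch shown. EAF1 held ETS cores as well, INTS3 an ETS core and a CCAAT box, INTS2 a CCAAT box and MLLT3 an NRF1 site. Among the stretches shown, which leave out ELL2 and INTS9, no marked motif was found in EAF1 alone. Over the full windows, the SP1 box was found in 32 of the 43 members (74.4%) and in 45% of all 35116 promoters, the ETS core in 17 (39.5%) against 10.3%, the NRF1 site in 6 (14%) against 3.05% and the CCAAT box in 18 (41.9%) against 34.6%. The E-box CACGTG was in 4 members (9.3%) against 7.26% of all promoters, the cAMP response element TGACGTCA in 3 (6.98%) against 1.85% and the YY1 site AAGATGGCG in 3 (6.98%) against 1.75%. No member held the TATA box TATAAA, found in 11.5% of all promoters, and 1 each (2.33%) held the heat shock core GAANNTTC (6.77% of all) and the ATF4 element TGATGNAAN (3.61%). The motifs were searched on both strands and can overlap. The 35116 promoters were all RefSeq windows of full length, whether or not their genes were expressed in these cells. The members were not compared with expressed genes alone, so these differences cannot be read as particular to the members. Median GC content was 66% in the members' windows and 58.7% in all windows.

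The list holds pairs of paralogs and partners, and 12 pairs had both genes tested. ELL2 differed most from ELL, its paralog: the ratio of ELL2 to ELL fragments was 0.111 and 0.0820 with DMSO and 0.332 and 0.500 with SGSS05-NS. ELL itself stayed between 10.4 and 11.7 CPM, and the difference between the log2 fold changes was 2.12 (SE 0.34, 95% interval 1.38 to 2.85). The ratio of MLLT3 to MLLT1, which share the YEATS domain, was 0.705 and 0.675 with DMSO and 0.259 and 0.313 with SGSS05-NS, a difference of −1.27 (SE 0.17, interval −1.63 to −0.91). Both pairs shifted in composition, with the groups' ratios apart.

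The nuclease modules of CPSF and Integrator are built alike, from an active and an inactive metallo-β-lactamase protein, and could be compared across complexes. The log2 fold change of CPSF3 minus that of INTS11 was −0.42 (SE 0.13, interval −0.71 to −0.13), with ratios of 5.26 and 5.15 against 3.86 and 3.91. Among the inactive partners the sign was the opposite: CPSF2 minus INTS9 was 0.42 (SE 0.14, interval 0.11 to 0.73), with ratios of 2.99 and 3.20 against 4.37 and 3.92. CSTF2T, a CSTF2 paralog outside the list, differed from CSTF2 by 0.43 (interval 0.13 to 0.73). For the other 7 pairs the interval of the difference held 0, with differences of both signs. The lowest was EAF2 minus EAF1 (−0.50, interval −1.18 to 0.19) and the highest TCEA2 minus TCEA1 (0.19, interval −0.16 to 0.54). Between them lay INTS6L minus INTS6 (−0.19, interval −0.72 to 0.35) and SUPT16H minus SSRP1 (−0.06, interval −0.35 to 0.22), among others. These intervals were not adjusted for the 12 pairs, and the ratios overlapped between the groups only for CDK13 to CDK12 and CPSF7 to CPSF6. Separation alone says little here. Of all single genes 37.8% lay above and 36.9% below in both SGSS05-NS libraries, and no such share was computed for ratios.

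**Figure D3:**
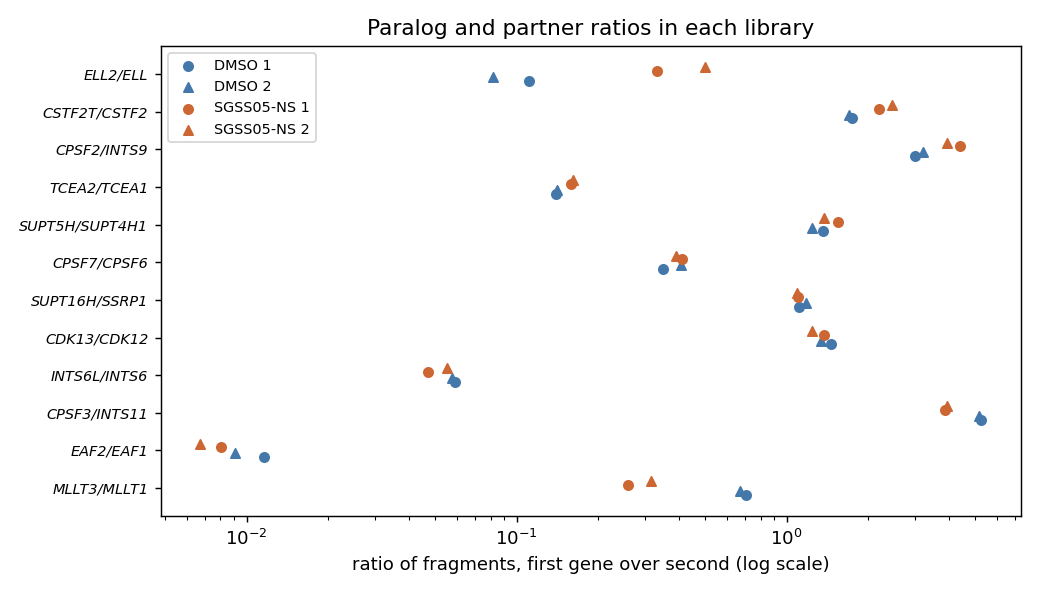
Ratio of the fragments of the first gene to those of the second in each library (horizontal log axis) for the 12 pairs (vertical axis); each point is 1 library, blue for DMSO and orange for SGSS05-NS. The ELL2 to ELL ratio lies at 0.0820 and 0.111 with DMSO and at 0.332 and 0.500 with SGSS05-NS, and the ratio of MLLT3 to MLLT1 is lower with SGSS05-NS.

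Members were also compared with all genes of similar length. Among all genes of 100 kb or more (n = 2833) the median log2 fold change was −0.42, with 27.8% called lower and 1.48% higher. The 9 members of that length had a median of −0.08, and 2 of them, MLLT3 (280.8 kb) and INTS9 (122.6 kb), fell. From 30 to 100 kb the median was −0.05 over 25 members, of which 1 rose and 3 fell, and 0.02 over all genes, of which 6.06% rose and 3.78% fell. Under 30 kb the median was −0.02 over 16 members, of which EAF1 alone was called, and 0.14 over all genes, of which 8.24% rose and 3.98% fell. Spearman's rho between length and log2 fold change was −0.117 over the 50 members and −0.22 over 16042 genes, as a description across genes, which share the libraries and are not replicates.

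A further 51 genes of the same pathway, among them elongins, little elongation complex subunits, other Integrator partners, poly(A) polymerases and phosphatases of the polymerase tail, were listed beside the members. AFF2, CPSF4L and TCEA3 had too few fragments to be tested. Of the 48 tested, 2 rose and 2 fell (4.17% each, beside the 6.37% and 8.14% of all genes), with a median log2 fold change of −0.04. AFF3, a scaffold related to AFF1, had 18.3 and 25.7 CPM with DMSO and 6.13 and 7.82 CPM with SGSS05-NS (log2 fold change −1.65, SE 0.18, adjusted p = 2.65e-05). IWS1, a partner of SPT6, had 65.1 and 70.3 CPM against 47.3 and 45.4 CPM (log2 fold change −0.55, adjusted p = 0.000685), a call lost when libraries were scaled by their totals alone (adjusted p = 0.0022), without DMSO replicate 2 (0.0022) and without SGSS05-NS replicate 2 (0.0014). All groups were apart for these genes, as they were for the genes that rose. SPTY2D1, a histone chaperone, had 51.2 and 54.1 CPM against 83.5 and 89.9 CPM (log2 fold change 0.72, adjusted p = 9.27e-05). NABP1, the single-stranded DNA binding protein that joins INTS3 in SOSS, had 4.23 and 3.38 CPM against 8.16 and 9.14 CPM (log2 fold change 1.18, SE 0.18, adjusted p = 0.000316), while INTS3 fell.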

How the data were processed

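RNA of 4 SY5Y libraries was measured. The sources differ on the library kit: the labels name a TruSeq RNA kit and the study's methods a stranded total RNA kit with ribosomal RNA removal. Per the labels and the study's methods, the authors used Trimmomatic 0.30 for trimming and STAR 2.4.2a for alignment to hg19. They deposited STAR's raw gene counts of fragments, neither normalized nor pooled. Each table held 57820 gene rows, 4 summary rows, which were left out, and 3 columns: counts without regard to strand and counts for each strand. The reverse-stranded column was used here. Multi-mapping fragments were not assigned to a gene, which lowers the counts of genes that have close copies.

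Groups and replicate numbers came from the labels. Counts were analysed in R 4.3.3 with edgeR 4.0.16: low genes were removed with filterByExpr, libraries were scaled by TMM, and the groups were compared with the quasi-likelihood test on group alone. P-values of all 16468 genes tested were adjusted by Benjamini-Hochberg. The threshold of 0.001 is that of the study, which applied it to the likelihood ratio test of edgeR 3.10.5, here an alternative. Levels are TMM-normalized CPM, and RPKM divides these by the summed exon length. The SE of a log2 fold change is its size divided by the root of the F statistic, and a pair's SE is the root of the summed squares of both SEs. Symbols, positions and lengths came from GENCODE 44 on GRCh37, the build of the files. With 2 libraries per group no exact test of a single gene can be small, so tests rest on the fit across all genes.

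The members, the other pathway genes and the markers were chosen from general knowledge with earlier results of these data known. The result of 1 further marker is not reported here. Values per library are given for every member called, for the member with the smallest p-value in a complex with none called, and for the other pathway genes called. INTS1, INTS6, INTS12, INTS11, CPSF3, XRN2, RTF1 and LEO1 were added after their values were seen. As alternatives, DESeq2 1.42.0, limma 3.58.1 (voom) and edgeR's likelihood ratio test replaced the test. Others changed the scaling (DESeq2 size factors, library size only), the filter (none, or a minimum of 10 counts per library), the model (a replicate block), the column (without regard to strand) or the threshold (0.05 and 0.01), or left out each library. The test was tried on simulated counts first.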

Additional observations from a re-analysis of the deposited data

Results flagged for a closer look

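Fragments on the strand opposite to a member were not in the counts tested in the report, and entered only the alternative without regard to strand. In that column, with CPM taken over its own total, both SGSS05-NS libraries were over 2 times the higher DMSO library, with at least 20 fragments in a library, for 3 of the 51 members (5.88%) and for 391 of the 16468 genes tested (2.37%). Among those with at least 20 such fragments in a library, it was 3 of 19 members (15.8%) and 391 of 3691 genes (10.6%). At NELFA 9 and 6 fragments were counted with DMSO and 25 and 25 with SGSS05-NS, which is 21.89 and 19.73 CPM in the treated libraries. At CDK13 there were 27 and 24 fragments with DMSO and 71 and 58 with SGSS05-NS (62.16 and 45.78 CPM). At CPSF7 there were 6 and 3 fragments with DMSO and 16 and 30 with SGSS05-NS (14.01 and 23.68 CPM). A gene is annotated on the other strand at CPSF7 (ENSG00000256591), and none at NELFA and CDK13. The share of gene fragments on the other strand was 4.67% and 4.64% with DMSO and 5.05% and 5.04% with SGSS05-NS, and its part in these values was not tested.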

How the results depend on the processing

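No alternative turned the direction of a call. All 7 called members passed the threshold under every alternative except scaling by library size only, where CPSF2 did not. The number of members that rose was 2, against 7 by the likelihood ratio test, 5 by DESeq2, 6 with no filter, 9 at a threshold of 0.05, 7 at 0.01, and 2 to 4 with a library left out (4 without DMSO replicate 2, where CCNK and INTS12 passed, and 4 without SGSS05-NS replicate 1, where INTS6 and INTS12 passed). The number that fell was 5, 11 at 0.05 and 4 to 7 otherwise. The likelihood ratio test, which the study used, added SUPT6H, CCNK, INTS6, INTS12 and CLP1 (higher) and CDC73 and INTS1 (lower). That test also called more of all 16468 genes, 2022 higher and 2267 lower, beside 1049 and 1341 in the main fit. DESeq2 called 1126 and 1576 of them. At 0.05 the main fit called 22.6% of all genes higher and 23.7% lower, and no such share was computed at 0.01. The causes were not tested. Of the other pathway genes 2 rose, with 5 by the likelihood ratio test, 4 by DESeq2, 5 with no filter, 9 at 0.05, 7 at 0.01, and 2 to 4 with a library left out (4 without SGSS05-NS replicate 1). Likewise 2 fell, with 6 by the likelihood ratio test, 5 by DESeq2, 4 with DESeq2 size factors, 1 with library size only, 7 with no filter, 4 without regard to strand, 10 at 0.05, 8 at 0.01, and 1 to 4 with a library left out (4 without DMSO replicate 1, 1 without DMSO replicate 2). The members' median log2 fold change of −0.056 was −0.0242 with library size only, −0.0945 without regard to strand, and −0.0999 to −0.0492 with a library left out. With a library left out, the lone library of that group is assumed to vary like the other group. With a library left out, the median of TFIIS ranged from −0.0994 to 0.0675, that of CDK12, CDK13 and CCNK from −0.172 to 0.00887 and that of Integrator from −0.122 to 0.0471, so none of these had a stable sign. CCNK had adjusted p-values from 2.8e-15 to 0.15 over all alternatives.

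With no filter, 2034 of 30755 genes rose and 2570 fell. With library size only it was 929 and 997 of 16468, beside 1049 and 1341 in the main fit. The replicate numbers were not shown to pair the libraries: deviations of same-numbered libraries correlated at 0.0526. With the replicate block 6 members rose (CCNK, INTS6, INTS12 and CLP1 besides the others) and CDC73 fell as well, and 5 of the other pathway genes fell, with 1759 and 2007 calls over all genes. Replicates differed by more than counting error (chi-square per degree of freedom 8.76 with DMSO and 11.8 with SGSS05-NS). With 2 libraries per group the spread of a single gene is poorly known, and low genes such as ELL2, EAF2 and ELL3 are limited by depth.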
